A study of Mus musculus with 8 samples.

Results

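Transcripts enriched for N6-methyladenosine (m6A) over input were examined in C2C12 myotubes after 3 days in differentiation medium (3d DM). A gene symbol was taken as a member when it had a line in the peak list of both 3d DM replicates, and its highest fold of immunoprecipitate over input was kept in each list. This gave 5653 symbols, which were 69.7% of the 8112 symbols with a line in at least 1 of the 2 lists and were part of the 9153 symbols with a line in any of the 4 lists of the series. C2C12 is an immortalized mouse myoblast line that fuses into multinucleated myotubes when serum is lowered. Myoblasts in growth medium (GM) were kept in 10% fetal bovine serum and taken at 50% confluence, whereas 3d DM cultures were switched at 90% confluence to 2% horse serum for 3 days. Each state had 2 libraries immunoprecipitated with an anti-m6A antibody and 2 input libraries of the same fragmented poly(A) RNA. The labels name no deletion or transgene in either state. Nothing in the sources says that replicates came from separate cultures, so p-values rest only on the spread between these samples, which may be technical. The RNA test pooled that spread over genes, so a gene's p-value and standard error (SE) hardly reflect its own 2 replicates.

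m6A is placed on nascent mRNA by a nuclear complex in which Mettl3 is the catalytic subunit, Mettl14 binds RNA, and adaptors such as Wtap, Virma, Zc3h13, Cbll1, Rbm15 and Rbm15b place the enzyme. The mark lies mostly within a DRACH sequence (D is A, G or T; R is A or G; H is A, C or T), of which GGAC is a frequent core, and it is concentrated in long internal exons and around stop codons. Fto and Alkbh5 remove it, and Ythdf and Ythdc proteins bind it and affect mRNA decay, translation and nuclear processing.

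The input libraries bore the marks of myotubes. *Myh3*, the embryonic myosin heavy chain, had RNA levels of 1068 and 273 in GM against 33485 and 51674 in 3d DM (log2 difference 6.26 ± 0.41 SE, adjusted p = 5.63e-50, limma with Benjamini-Hochberg adjustment). *Mymk*, *Ckm*, *Acta1*, *Myog* and *Tnnt3* were also higher in 3d DM by this test, with log2 differences of 4.06 to 5.67, and the proliferation genes *Mki67*, *Top2a*, *Ccnb1* and *Cdk1* were lower, with differences of -3.21 to -2.63. Direction held in each fit that left out a library, but the calls of *Mymk*, *Ckm* and *Myog* were lost without either 3d DM library and those of *Tnnt3* and *Top2a* without 3d DM replicate 1. In bulk libraries, fewer cells of a type and less RNA per cell cannot be told apart. Of 17 markers of fat, endothelial, immune, nerve, epithelial and cartilage or bone cells, 15 were under 5 in each 3d DM library, and *Adipoq*, *Plin1*, *Lep*, *Kdr*, *Adgre1*, *Rbfox3* and *Acan* were at 0 to many decimal places in all 4 libraries. Their summed level was 120 and 229 in GM against 89.3 and 143 in 3d DM, most of it from the epithelial keratin *Krt14*, at 65.9 and 120 in 3d DM. RNA levels are the deposited TMM-normalized values, and neither they nor the peak lists carry read numbers, so the depth behind each value is unknown.

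In 3d DM replicate 1 the highest fold of the members had a median of 4.88 and ran from 1.06 to 101, with quartiles of 3.27 and 7.41. In replicate 2 the median was 5.50, the range 1.17 to 412 and the quartiles 3.72 and 9.19. The folds of the replicates had a Spearman correlation of 0.600 and a Pearson correlation of 0.593 on the log2 scale across the 5653 symbols, which are not independent replicates. The median ratio between the 2 folds of a symbol was 1.40, and 80.5% of symbols had folds within 2-fold of each other. The highest peak lay in the same place in both lists for 3965 symbols (70.1%, sharing at least 1 base). Of the 565 symbols in the highest 10% of each list, 178 (31.5%) were shared, and of the lowest 10%, 288 (51.0%). Symbols listed in replicate 1 alone numbered 1818 (median fold 4.96), and those in replicate 2 alone 641 (median fold 3.13).

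**Figure D1:**
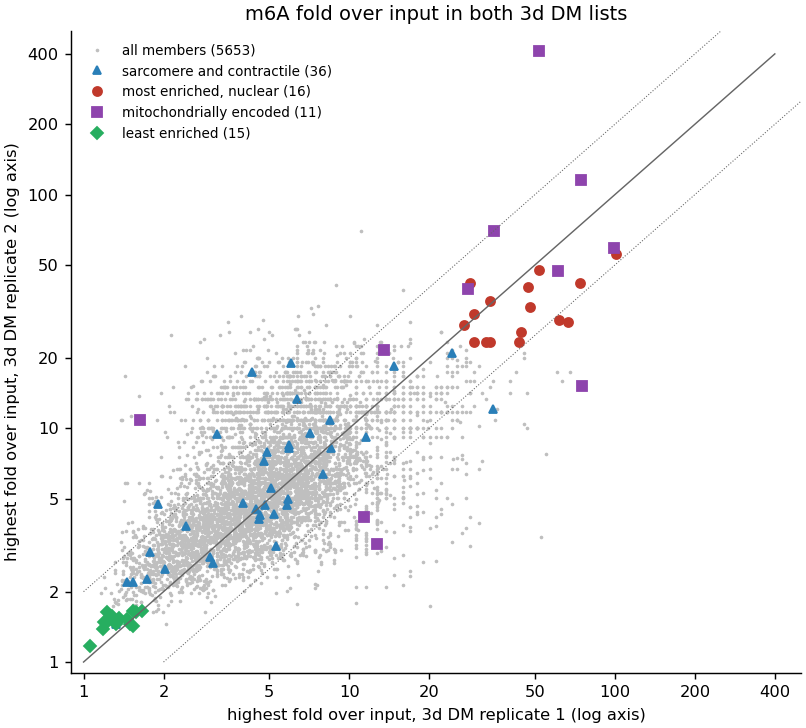
Highest m6A fold over input of each of the 5653 symbols in 3d DM replicate 1 (horizontal, log axis) and replicate 2 (vertical, log axis), 1 point per symbol, with the most enriched, least enriched, mitochondrially encoded and sarcomere symbols coloured and dotted lines at 2-fold differences. The cloud follows the diagonal with a Spearman correlation of 0.600 and widens toward high folds.

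The peaks sat mainly in coding sequence (CDS) and 3′ UTR. In replicate 1, 30.7% of highest peaks lay in CDS alone, 32.5% in CDS and 3′ UTR, and 31.9% in 3′ UTR alone. In replicate 2 these shares were 36.7%, 27.7% and 30.6%. The 5′ UTR was touched by 4.86% and 4.95%. Of all highest peaks, 77.6% in replicate 1 and 70.0% in replicate 2 held GGAC on the strand of the transcript. In the 100 bases at the peak centre, GGAC was found in 40.4% and 42.8% of peaks, and its reverse complement GTCC in 25% and 24.6%. GTCC has the same GC content as GGAC but not the same bases. The longer GGACT was found in 14.7% and 14.5% of these windows, and its reverse complement AGTCC in 8.48% and 8.04%. The letters are a description and not a mapped site.

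The most enriched symbols were the 20 with the highest value of the lower of their 2 folds, which came to 22 because 4 tied at the last place with 23.4. The next symbol, *Tprkb*, had a lower fold of 23.3. These values chose the symbols and are described without a test. The 22 comprised 6 mitochondrially encoded subunits of respiratory complexes and 16 nuclear genes. All 22 also had a line in both GM lists, and the highest peaks of the replicates overlapped for 21, *Fnbp1* being the exception.

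*B4galt7*, a galactosyltransferase that helps build the linker of glycosaminoglycan chains, had folds of 101 and 55.9 in 3d DM and 31.5 and 96.2 in GM. Its highest peak covered 931 bases of 3′ UTR (chr13:55609512-55610442, plus strand, mm10) with a p-value of 1e-31 in the deposited list. *A4galt*, which makes globotriaosylceramide, had folds of 51.9 and 47.6 in 3d DM, where the replicates lay close together, and 8.75 and 61.0 in GM, where they did not. *Sema4b*, a membrane-bound semaphorin, had 74.1 and 41.8 against 44.2 and 24.4 in GM. *Rint1*, a tethering factor between Golgi and endoplasmic reticulum, had 47.1 and 40.1 against 98.8 and 40.7. For these genes the ranges of the 2 states overlapped, and no fold lay under 8.75.

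*Tmed5*, a p24 family cargo protein, had folds of 33.9 and 35.1, and *Zdhhc20*, a palmitoyltransferase, 48.1 and 33.0. *Fnbp1*, a membrane-bending F-BAR protein, had 29.6 and 30.9 and was the one nuclear gene with its highest peak in CDS alone. Its GM folds were 18.4 and 5.74. *Nucks1*, a chromatin-associated phosphoprotein, had 66.7 and 28.4, with GM folds of 6.78 and 13.4. *Cast*, the calpain inhibitor calpastatin, had 61.4 and 29.2, and *Mrpl40*, of the large mitochondrial ribosomal subunit, 28.6 and 41.8. *Slc8b1*, the mitochondrial sodium-calcium exchanger, had 27 and 27.6, the closest pair of the group. *Yeats2*, a reader of acylated histones, had 44.4 and 25.9. *Cercam*, *Cyb5d2*, *Gtpbp3* (a mitochondrial tRNA-modifying GTPase) and *Rnf168* (a ubiquitin ligase of the DNA damage response) shared a fold of 23.4 in replicate 2 and had 43.4, 33.9, 32.8 and 29.6 in replicate 1. In *Fnbp1*, *Nucks1*, *Slc8b1*, *Yeats2*, *Cyb5d2* and *Rnf168*, 6 of the 16 nuclear genes, both GM folds lay under both 3d DM folds. The genes were chosen for high 3d DM folds, so nothing is read from that count, and 0% of symbols in all 4 lists differed in fold between states by limma. The highest peaks of *Rint1* and *Mrpl40* in both replicates, and of *Cast* in replicate 1, overlap another annotated gene on the opposite strand. Whether the peak calling used strand is not given in the sources used here, so whether their reads were split between genes is unknown.

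The nuclear members of this group differed from the other members in where the peak lay and in what sequence it held. The highest peak touched the 3′ UTR in 15 of 16 genes in each replicate and lay in 3′ UTR alone in 12 and 13. Of all members, 65.2% and 59.3% touched it, and 31.9% and 30.6% lay there alone. Of the highest 10% by fold these shares were 62.4% and 55.3%, and 41.0% and 37.5% alone, so the 16 genes do not stand for that whole group. In replicate 1 the peak centre of the 16 lay a median of 639 bases past the CDS end. For all members it lay 28 bases before that end. Read from the mouse reference (RefSeq copy of GRCm38, mm10), the peaks of 13 of the 16 genes in replicate 1 and 14 in replicate 2 held the same 14-base run, agtgagttccagga, or its reverse complement. Among all 5651 members with sequence, 103 (1.82%) and 70 (1.24%) held it. The run was picked after the peaks had been compared, so these shares carry no test. It matches the B1 short interspersed element, a repeat with very many copies in the mouse genome, from general knowledge and without a repeat annotation. The following stretches of the highest 3d DM peaks, 5′ to 3′ on the transcript strand with the run or its reverse complement in capitals, are shown because they are nearly the same in unrelated genes. *Rint1* (chr5:23819685-23819712, plus), *Tmed5* (chr5:108124014-108124041, minus), *Zdhhc20* (chr14:57835082-57835109, minus) and *Rnf168* (chr16:32300135-32300162, plus) carry it in the same orientation:
Rint1: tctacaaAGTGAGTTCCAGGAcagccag
Tmed5: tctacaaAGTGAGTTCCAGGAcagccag
Zdhhc20: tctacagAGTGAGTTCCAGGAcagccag
Rnf168: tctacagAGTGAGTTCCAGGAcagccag

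*A4galt* (chr15:83226939-83226966, minus), *Sema4b* (chr7:80226102-80226129, plus), *Cercam* (chr2:29882433-29882460, plus) and *Gtpbp3* (chr8:71493036-71493063, plus) carry it in the opposite orientation:
A4galt: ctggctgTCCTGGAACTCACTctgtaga
Sema4b: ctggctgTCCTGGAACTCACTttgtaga
Cercam: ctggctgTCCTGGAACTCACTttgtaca
Gtpbp3: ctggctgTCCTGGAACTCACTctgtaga

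In replicate 1 the run was in the transcript orientation in 6 genes and reversed in 7, and in replicate 2 in 6 and 8. In the transcript orientation, the end of the run and the base after it read GGAC in the stretches shown. The reversed stretches shown hold GAACT, which also fits DRACH. Some of the letters counted in these peaks thus lie at the run itself. *B4galt7* and *Fnbp1* lacked the run in both lists. By repeat masking, given by lower-case bases of the reference, 50% or more of the peak was masked in 6 of the 16 genes (37.5%) in replicate 1 and 10 (62.5%) in replicate 2, against 4.88% and 4.48% of all members. Of the 544 peaks in the highest 10% of members outside the 22 most enriched symbols, 62 (11.4%) held the run in replicate 1 and 39 (7.17%) in replicate 2. It was found in 1.77% and 0.885% of peaks in the next 10%, and in 0 of 566 in the lowest 10% of either list. Outside the most enriched symbols, 49 members held it in both lists, with a median geometric mean fold of 14.6 (quartiles 10.6 and 21.8). Among peaks that lay in 3′ UTR alone, again outside the most enriched, 81 with the run had a median fold of 14.8 in replicate 1 and 1706 without it 4.43. In replicate 2 these were 12.5 for 51 peaks and 4.92 for 1663. How reads from repeat copies were assigned is not given in the sources used here, and the part of repeats in these folds was not tested.

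Left without a mitochondrial transcript or the run in either list, the highest ranks, a set chosen after the values were seen, were *B4galt7* and *Fnbp1* followed by *Agbl5* (22.2 and 25.9), *Rbak* (27.5 and 21.7), *Cit* (24.3 and 20.9), *Ttn* (24.3 and 20.9), *Cep162* (23.3 and 20.9), *Bmp4* (27.5 and 20) and *Mrpl19* (23.3 and 20). *Bmp4* encodes a secreted BMP ligand, and *Cit* a kinase of cytokinesis. The *B4galt7* peak was 46.6% masked in replicate 1, and the *Ttn* peak held no masked base.

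**Figure D2:**
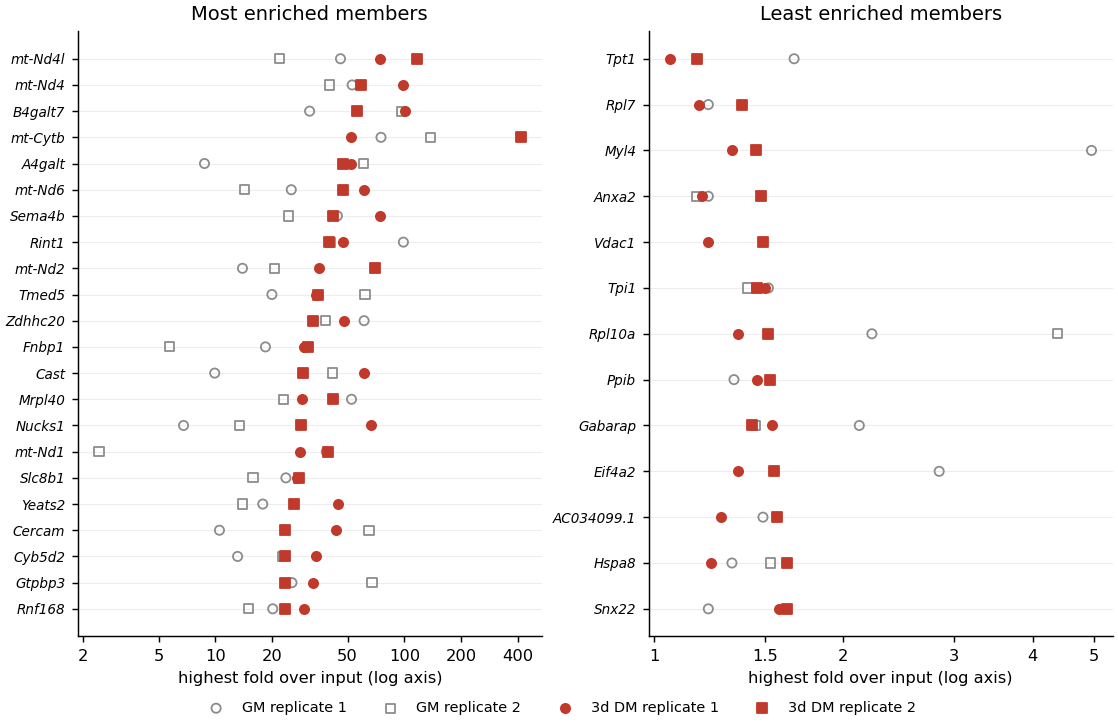
Highest m6A fold over input (log axis) of the 22 most enriched symbols and 13 of the 15 least enriched, with a point for each replicate of 3d DM and of GM. The 3d DM points of the most enriched lie at 23.4 or higher and those of the least enriched shown at 1.63 or lower.

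Mitochondrially encoded mRNAs stood apart from the nuclear ones by level and by spread. Of 13 such mRNAs, 11 were members. *mt-Nd4l* had folds of 74.3 and 116, *mt-Nd4* 98.9 and 59.1, *mt-Nd6* 61.2 and 47.3, *mt-Nd2* 35.2 and 69.7 and *mt-Nd1* 27.9 and 39.4, all subunits of complex I. *mt-Cytb*, of complex III, had 51.9 and 412, the highest single fold of the members. *mt-Nd5* had 75.4 and 15.2, and the complex V subunit *mt-Atp6* 13.5 and 21.7. The complex IV subunits were lower and less even, with 1.63 and 10.9 for *mt-Co1*, 12.7 and 3.20 for *mt-Co2* and 11.4 and 4.18 for *mt-Co3*. The replicate folds differed by more than 2-fold for 5 of the 11, with ratios of 1.29 to 7.94, whereas 19.5% of all members did so. GM folds ran from 2.42 to 138, so the states overlapped. None of their peaks held a masked base, and their RNA was abundant, with a median level per kb of 34576 and 31870 in 3d DM against 68.2 and 97.5 for all members. They held 1.51 GGAC per kb in replicate 1 against 5.24 in all highest peaks, at a median GC content of 37.1% against 49.3%. *mt-Nd4l* and *mt-Nd4* overlap on the same strand, and *mt-Nd6* lies against *mt-Nd5* on the other, so their peaks are not independent. In both lists the highest peaks of *mt-Nd1*, *mt-Nd2*, *mt-Nd5* and *mt-Nd6* covered the whole annotated RNA (957, 1038, 1824 and 519 bases). The folds of these mRNAs are thus those of the transcript and not of a place within it.

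The least enriched symbols were the 15 with the lowest value of the higher of their 2 folds, up to 1.66, the next being *Mff* with 1.68. *Tpt1*, translationally controlled tumour protein, had 1.06 and 1.17, followed by the ribosomal protein gene *Rpl7* with 1.18 and 1.38. The embryonic myosin light chain gene *Myl4* had 1.33 and 1.45. *Anxa2* (1.19 and 1.48), the mitochondrial channel gene *Vdac1* (1.22 and 1.49), the glycolytic *Tpi1* (1.5 and 1.46), *Rpl10a* (1.36 and 1.52) and *Ppib* (1.46 and 1.53), a cyclophilin, were next. *Gabarap*, *Eif4a2*, *AC034099.1*, the chaperone gene *Hspa8*, *Snx22* and *Aldh3b1* were also in the group, with folds of 1.23 to 1.66. The annotated loci of *AC034099.1* and *Snx22* overlap *Ctsd* and *Ppib*, and *Snx22*, on the strand opposite *Ppib*, was at RNA levels of 5.91 and 2.67, and whether the peak calling used strand is not given in the sources used here.

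Of these 15 symbols, 6 had a line in both GM lists, 7 in 1 and 2 in neither. Their highest peaks were short, with a median of 150 and 181 bases against 361 and 241 for all members, and their transcripts were short, with a median of 1163 bases against 3065 in replicate 1. GGAC was present in 6 of 15 highest peaks in replicate 1 and 8 in replicate 2. The letters were present at both ends of the ranking, as in *Tpi1* (chr6:124812484-124812512, minus, CDS) and *Aldh3b1* (chr19:3913745-3913773, minus, 3′ UTR). They are set beside *B4galt7* (chr13:55610039-55610067, plus, 3′ UTR) and the m6A adaptor gene *Rbm15* (chr3:107331178-107331206, minus, CDS). In replicate 1 the *B4galt7* and *Aldh3b1* peaks were 46.6% and 43.3% masked and that of *Tpi1* 0%. Whether the stretches lie in repeats was not tested. The GGAC or GGACT is in capitals:
Tpi1: gccctagcagagGGACTcggggtgatcgc
Aldh3b1: gctcccctttttGGACctttgaataagat
B4galt7: gatttgaactcgGGACccttggaagagca
Rbm15: cagaggtgatcgGGACTtgcccagcagca

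The RNA level per kb had a median of 781 and 1003 in the least enriched group, 47.3 and 61.1 in the 16 nuclear most enriched genes, and 68.2 and 97.5 in all members. Across 5566 members with a level, fold and level per kb had a Spearman correlation of -0.507. The fold is divided by the same 2 input libraries that give the level, so the measures share their noise. Only called peaks are listed, and a fold near 1 is more readily called where RNA is abundant. The relation, and the high level of the least enriched group, are therefore partly built in by the listing. From the highest to the lowest 10% of members by fold, the median level per kb went from 23.9 to 238 in replicate 1 and from 33.7 to 337 in replicate 2. The median transcript length went from 4302 to 2015 bases in replicate 1, and the mean number of separate peaks from 3.12 to 1.34 in replicate 1 and from 2.25 to 1.43 in replicate 2. The ranking took the highest of a symbol's peaks, which favours symbols with more peaks, and longer transcripts have room for more. These 2 trends are therefore partly built in by the ranking. Peaks within 200 bases of the CDS end made up 19.9% of the highest 10% and 45.2% of the lowest in replicate 1, and 23.5% and 46.6% in replicate 2. The share that held GGAC was 74.2% and 60.4% in replicate 1 but 63.6% and 66.4% in replicate 2, so that its order turned between the replicates. A wider peak has more room for the letters, and median widths were 330 and 206.5 bases in replicate 1 and 205 and 210 in replicate 2. Per kb of peak, GGAC numbered 4.95 and 5.10 in replicate 1 and 5.74 and 5.33 in replicate 2, the opposite order in each.

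**Figure D3:**
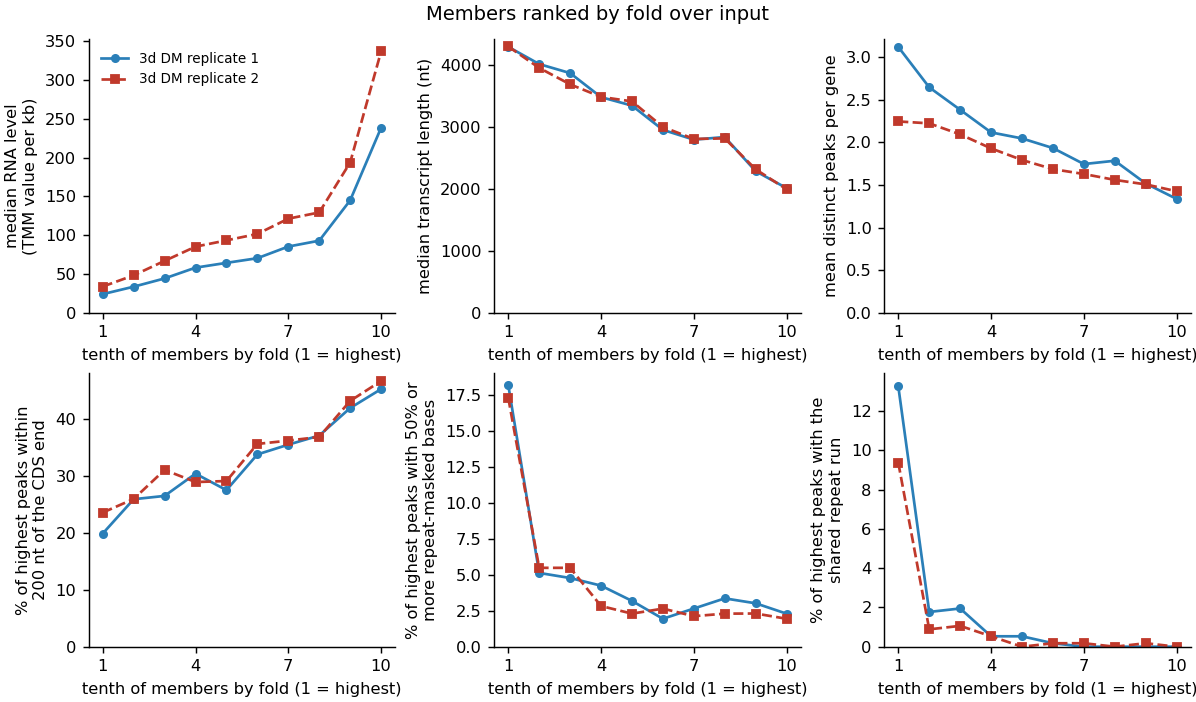
The 5653 members in 10 equal groups by fold (1 is the highest), with 1 line per 3d DM replicate and panels for RNA level per kb, transcript length, number of peaks, position near the CDS end, repeat masking and the shared repeat run. RNA level rises and transcript length falls toward the lowest folds, and the repeat measures are highest in the first group (18.2% and 17.3% of its peaks are 50% or more masked). The ranking takes the highest of a symbol's peaks, so it favours symbols with more of them.

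Of the 10 most abundant members 5 were nuclear, and 4 of these had both folds under the members' median in each list. *Fn1*, fibronectin, had 1.94 and 1.90 and the translation elongation factor *Eef1a1* 2.22 and 2.14. *Lars2*, a mitochondrial leucyl-tRNA synthetase, had 3.03 and 4.06, and *Myh3* 4.81 and 4.72, against 21.9 and 6.87 in GM. The fifth, *Tmsb10* (thymosin beta 10), had 2.75 and 23.4, a gap larger than that of most members. The other abundant members were *mt-Co1*, *mt-Co2*, *mt-Co3*, *mt-Cytb* and *mt-Atp6*.

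The m6A machinery was itself among the members. Of 9 writer genes, all expressed, 7 were members, with a median geometric mean fold of 8.56 against 5.39 for all members, while *Mettl3* and *Mettl14* had no line in any of the 4 lists. Among the 10684 expressed genes with a symbol, 51.2% were members. *Rbm15b* had folds of 10.0 and 9.74, *Zc3h13* 9.79 and 10.0, *Rbm15* 7.05 and 10.4, *Cbll1* 8.99 and 5.34 and *Virma* 5.79 and 6.68. *Wtap* had 22.2 and 4.29, with its highest peak in 3′ UTR in replicate 1 and in CDS in replicate 2. *Mettl16*, a methyltransferase of separate targets, was lowest with 2.54 and 3.13. Of 9 expressed eraser and reader genes, 8 were members (median 4.57), *Ythdc2* being without a line. *Ythdc1*, the nuclear reader, led with 8.30 and 7.82, then *Hnrnpa2b1* (7.05 and 4.35), *Ythdf2* (5.82 and 4.04), *Ythdf3* (5.89 and 3.76), *Igf2bp2* (3.92 and 5.01), *Alkbh5* (3.99 and 2.78), *Ythdf1* (3.17 and 2.47) and *Fto* (2.42 and 2.75). None of the 15 passed the RNA test between states, except that *Fto* (log2 difference 0.97, higher) and *Igf2bp2* (-0.83, lower) passed it under median-of-ratios scaling.

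The lists of related genes fell into those above, near and below the members' median. They also differed in RNA level, and the folds were not adjusted for it. The median 3d DM level per kb of members was 34.2 for zinc finger genes and 58.0 for chromatin enzymes. It was 420 for proteasome subunits, 534 for oxidative phosphorylation, 2181 for cytosolic ribosomal proteins and 510 for sarcomere genes. Zinc finger genes, taken by symbol, had a median geometric mean fold of 8.69 in 177 members, of which 104 lay above the upper quartile of all members and 8 below the lower. *Zfp317* led them with 63.5 and 15.9, and *Zfp207* was last with 2.08 and 2.11. Chromatin enzymes had a median of 8.35, with 53 of 61 expressed genes as members and 32 of the 53 above the upper quartile. *Ncor1*, a corepressor scaffold, had 30.7 and 18.4, the remodeller *Chd6* 27.5 and 15.9, the methyltransferase *Nsd1* 14.8 and 15.9, and the deacetylase *Hdac5* was lowest with 3.33 and 2.39. Their highest peak lay in CDS alone in 31 of 53 in replicate 1 and 32 in replicate 2. Microtubule-binding proteins and motors had a median of 7.40 in 31 members, led by *Mtus1* (23.3 and 12.5). The large linker proteins *Dst* (7.94 and 15.3) and *Macf1* (6.04 and 13.4) were the most abundant of these. Immediate early and Kruppel-like factors had a median of 7.10 in 20 members, led by *Klf13* (10.4 and 23.2).

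Cytosolic ribosomal protein genes had a median of 2.54 in 37 members, 30 of them below the lower quartile. Of their 78 expressed genes 36 (46.2%) were members, near the 51.2% of all expressed genes. *Rpl23* was the highest of them with 9.24 and 8.54, close to its GM folds of 9.44 and 8.02. Proteasome subunits had a median of 2.53 (24 members, 19 below the lower quartile, highest *Psma4* with 3.83 and 6.68), and nuclear-encoded oxidative phosphorylation subunits 2.69 (30 members, 26 below the lower quartile, highest *Cox7b* with 3.81 and 8.35). Mitochondrial ribosomal proteins had a median of 3.83 in 44 members and spanned the range, from *Mrpl3* (1.86 and 2.09) to *Mrpl40*. Glycolysis had 8 members with a median of 3.67, where *Pfkp*, a phosphofructokinase, had 19.0 and 14.2 and *Pkm*, pyruvate kinase, 2.09 and 2.55. Notch, Wnt and TGF-beta signalling had a median of 5.22 in 36 members, led by *Tcf7l2* (26.5 and 11.7). Extracellular matrix and adhesion genes had a median of 4.26 in 35 members, led by *Col6a2* (18.0 and 11.4).

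**Figure D4:**
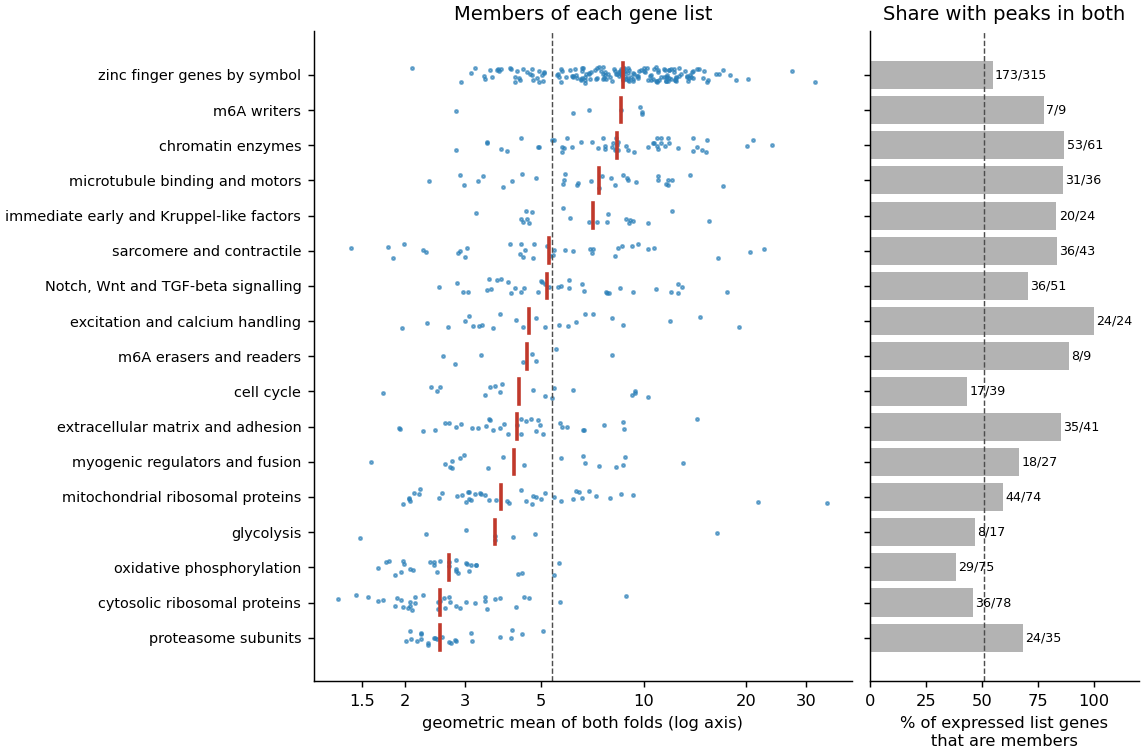
Geometric mean of both 3d DM folds for the members of each gene list (log axis, 1 point per gene, with the list median) and the share of each list's expressed genes that are members. The medians run from 2.53 for proteasome subunits to 8.69 for zinc finger genes, against 5.39 for all members.

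Muscle genes had peaks in 3d DM with folds near those of other members. Of 43 expressed sarcomere and contractile genes 36 were members, with a median geometric mean fold of 5.27, 10 above the upper and 10 below the lower quartile. *Ttn*, the giant spring protein, had 24.3 and 20.9, with GM folds of 17.5 and 12.5. Both 3d DM folds of *Ttn* thus lay above both GM folds, but the median of the list lay the other way. Over the 24 sarcomere members in all 4 lists, the median log2 fold difference (3d DM minus GM) was -0.806, and limma called 0. Over all symbols in the 4 lists it was -0.104. The 2 highest 3d DM peaks of *Ttn* did not overlap, and each was the top of many, 61 separate peaks in replicate 1 and 42 in replicate 2. They are thus not 1 site seen in both replicates. *Tmod1*, which caps thin filaments, had 34.9 and 12.1 against 14.4 and 32.9 in GM. *Neb*, nebulin, had 11.6 and 9.19. At the low end were *Myl4*, *Actn3* (1.46 and 2.19) and *Myoz2* (1.54 and 2.21), which bind or build thick filaments and the Z-disc. The expressed genes *Myl1*, *Mylpf*, *Mybpc2*, *Actn2*, *Acta1*, *Actc1* and *Xirp2* were not members, so some of the main fast-fibre and actin transcripts lacked a line in at least 1 list.

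All 24 expressed genes of excitation and calcium handling were members, with a median of 4.63. *Chrna1*, the acetylcholine receptor alpha subunit, had 24.3 and 15 in 3d DM and 1.61 in the GM replicate 1 list, with no line in GM replicate 2. *Trdn*, triadin, had 12.2 and 17.5, the ryanodine receptor *Ryr3* 18.0 and 7.93, and the cation channel gene *Tmem38a* 1.59 and 2.42. *Casq2*, a calsequestrin, had 3.25 and 2.77 against 46.4 and 2.93 in GM, where the replicates lay far apart. Of 27 expressed myogenic regulators and fusion genes 18 were members (median 4.16). *Pax7*, of muscle stem cells, had 25.4 and 6.68, *Mef2c* 13.8 and 5.49, and *Ncam1* 8.27 and 5.49. *Myod1* (2.55 and 2.95), the fusion micropeptide gene *Mymx* (2.47 and 4.96) and *Myog* (1.27 and 1.98) lay under the median. Cell cycle genes had 18 members (17 of 39 expressed) with a median of 4.31, from *Ccne2* (11.6 and 9.19) to the inhibitor *Cdkn1a* (2.04 and 1.46).

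RNA levels of members were then compared between states in the input libraries. Of 11406 genes tested with limma, 7.01% were higher in 3d DM and 9.96% lower at an adjusted p under 0.05. Of 5498 members tested, 454 (8.26%) were higher and 333 (6.06%) lower. Without 3d DM replicate 1 these counts were 75 and 11, without replicate 2 they were 121 and 135, and without GM replicate 2 they were 206 and 79. Without GM replicate 1 they were 335 and 101. Median-of-ratios scaling gave 788 and 472, and no filter on low values 7 and 2. Among the sarcomere genes 34 of 36 members were higher (17 without 3d DM replicate 1), led by *Myl4* at levels of 138 and 88.3 in GM against 17984 and 21267 in 3d DM (log2 difference 7.46 ± 0.42 SE, adjusted p = 4.42e-66). *Ttn* was at 4063 and 621 in GM against 17216 and 14642 in 3d DM (3.32 ± 0.41, adjusted p = 2.16e-14), a call lost without either 3d DM library. Excitation genes were higher for 23 of 24 members, a count of 5 without 3d DM replicate 1, 7 without replicate 2 and 14 without GM replicate 2. Of 18 cell cycle members 9 were lower and 3 higher, the lower ones being 2 without 3d DM replicate 1 and 5 without GM replicate 2.

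The RNA test was then read for the genes at either end of the fold ranking. Of the 16 nuclear most enriched genes, none was called higher and 1 lower, *Nucks1*, at 2891 and 2886 in GM against 1169 and 1518 in 3d DM (log2 difference -1.12 ± 0.42 SE, adjusted p = 0.0447 by limma). That call was lost in each fit that left out a library, and on all libraries with the filter in at least 3 of 4 (adjusted p = 0.0546), with no intensity trend (0.0853), with no filter (0.293) and with the replicate block (0.224). None of the 11 mitochondrial members was called in either direction. Of 13 least enriched symbols tested 2 were higher, *Myl4* (log2 difference 7.46, given above) and *Aldh3b1*, and 1 was lower. The lower one was *Anxa2* (11464 and 10170 in GM, 3027 and 4162 in 3d DM, log2 difference -1.60 ± 0.40, adjusted p = 0.000845), a call lost without GM replicate 1 or 3d DM replicate 1. *Aldh3b1*, an aldehyde dehydrogenase, was called higher with 718 and 85.3 in GM against 967 and 837 in 3d DM (1.85 ± 0.45, adjusted p = 0.000410), where GM replicate 1 lay close to the 3d DM levels. Without GM replicate 2 the difference was 0.33 and not called, and the call was also lost without either 3d DM library. The median geometric mean fold was 5.07 in the 454 members with higher RNA, 5.84 in the 333 with lower RNA and 5.42 in the 4711 not called.

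Most members were also present in myoblasts: 4989 (88.3%) had a line in both GM lists, 453 in 1 and 211 in neither. Of the 211, 200 were tested for RNA and 114 (57.0%) were higher in 3d DM with 1 lower, against 257 and 323 of 4861 tested members in both GM lists. Calling a peak needs reads, so little RNA in GM favours absence from the GM lists. The share of higher RNA among the 211 is therefore partly built in by how they were chosen. The 114 became 42 without 3d DM replicate 1, 64 without replicate 2, and 51 of 134 with the filter set in at least 3 of 4 libraries. The 257 and 323 became 26 and 11, 41 and 135, 162 and 99, and 78 and 77 without 3d DM replicate 1, 3d DM replicate 2, GM replicate 1 and GM replicate 2. Under median-of-ratios scaling they were 562 and 458, so that their order turned. The 211 include *Myh4*, *Casq1* and *Scn4a*, whose log2 RNA differences were 6.08, 6.30 and 6.71. For the 4989 symbols in all 4 lists, limma on the log2 highest fold called 0 as different between 3d DM and GM (0% of those tested). At an unadjusted p under 0.05 there were 176, 73 higher and 103 lower, and the lowest adjusted p was 0.662. In simulated data, each symbol had its real mean and a spread smoothed over symbols of similar mean. There, 84 of 100 planted 4-fold differences and 11 of 100 planted 2-fold differences were called. With 2 lists a state, 2-fold differences would thus mostly have been missed. Symbols with a wider spread of their own were not simulated, so recovery for them is unknown even at 4-fold.

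The highest folds recurred at fixed values. Of 745 members with a fold from 10 to under 100 in replicate 1 (13.2%), 533 (71.5%) lay within 0.05 of a whole multiple of 1.058, and of 1299 in replicate 2 (23.0%), 1155 (88.9%) lay within 0.05 of a whole multiple of 0.835. The steps were read from the data, and these bands cover 9.45% and 12% of the range. The most frequent fold was 11.6 in replicate 1, shared by 61 members, and 11.7 in replicate 2, shared by 157, of which 89 also shared the p-value 0.00155. *Cit* and *Ttn* had the same pair of folds, and *Cep162* shared their value in replicate 2. Among the nuclear most enriched genes 12 of 15 under 100 in replicate 1 and 15 of 16 in replicate 2 lay on such multiples. Of these higher folds 32.5% in replicate 1 and 67.2% in replicate 2 had a p-value over 1e-05. The lists hold no read numbers, so how many input reads stand behind a fold is unknown.

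**Figure D5:**
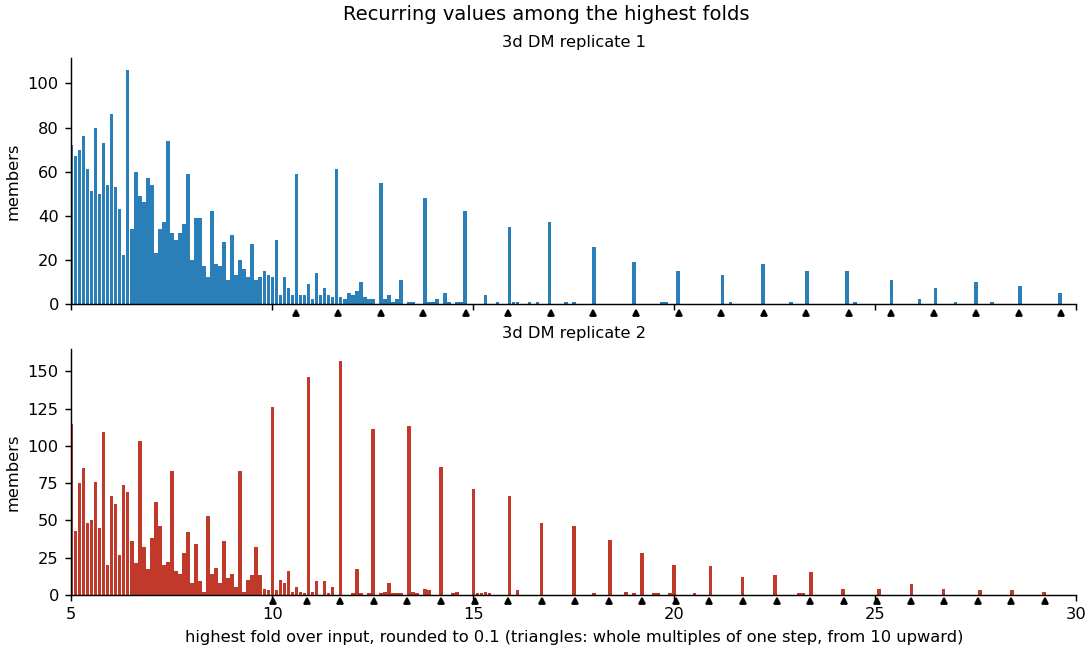
Number of members (vertical) at each highest fold rounded to 0.1 (horizontal) in 3d DM replicate 1 and replicate 2, with triangles at the whole multiples of 1.058 and 0.835 from 10 upward. The counts pile up at the triangles, most at 11.6 (61 members) and 11.7 (157 members).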

How the data were processed

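The authors fragmented poly(A) RNA, kept a part as input, immunoprecipitated the rest with an anti-m6A antibody, sequenced stranded libraries, aligned reads to mm10 with HISAT2 2.1.0 and called peaks per replicate with exomePeak. The 4 deposited peak lists give each peak a fold (ratio of immunoprecipitate to input) and a p-value, both as the authors computed them, and the study states a p-value threshold of 0.05. The authors made the deposited TMM-normalized signal of the 4 input libraries with edgeR. Its columns sum to nearly the same total, are not whole read counts, and some entries are minute non-zero values. The values may have been adjusted for dispersion across libraries, so the spread between replicates, and the p-values that rest on it, may not be that of the reads. Depth is unknown for all files.

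From these, the highest fold per symbol and list was taken, and symbols in both 3d DM lists were kept. Members, named genes and lists were chosen with earlier results of these data known. The named genes were the 20 symbols with the highest lower fold (with ties), the 15 with the lowest higher fold, the 10 most abundant, the highest, lowest and 2 most abundant of each list (all of a list of at most 11), and the state and cell markers. Other names were chosen after their values were seen. RNA was tested with limma 3.58.1 (R 4.3.3; moderated, with intensity trend) on log2(value + 1) for 11406 of 27179 rows with 25.1 or more in at least 2 of 4 inputs, and folds on log2 for 4989 symbols. Fold changes on the log2(value + 1) scale understate those of low genes. Adjusted p-values are Benjamini-Hochberg over all features tested. The moderated SE hardly followed a gene's own replicates: it was 0.42 for *Nucks1* (2891 and 2886 in GM) and 0.45 for *Aldh3b1* (718 and 85.3 in GM). Levels per kb use exonic length from GENCODE M21. Peak sequence came from the RefSeq copy of GRCm38, for 5651 members. The fits were tested on simulated data, in which 96 of 100 planted 4-fold and 23 of 100 planted 2-fold RNA differences were called among 11406 genes. The simulated spread was smoothed over genes of similar mean, so the wider spread of single genes was not covered.

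Replicate numbers came from the labels, which do not tie GM and 3d DM samples of a number together. Alternatives were other pseudocounts, filters, scaling, peak choices and rankings, a replicate block, and each library left out; leaving mitochondrial symbols out of the ranking and the recount of RNA calls by presence in GM were added after seeing the data. Some of the genes that the rule names are not reported here.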

Additional observations from a re-analysis of the deposited data

How the results depend on the processing

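The count of genes with a called RNA difference was 1936 (800 higher, 1136 lower), and 154 with no filter on low values and 145 to 1252 with a library left out. Among members, 454 were higher: 7 with no filter, 788 with median-of-ratios scaling and 75 to 335 with a library left out. The 333 lower members became 2 with no filter, 154 with the replicate block and 11 to 135 with a library left out. With no filter, the higher sarcomere and excitation members were 1 and 1 and the lower cell cycle members 0, and a left-out library gave 17 to 34, 5 to 20 and 2 to 8. Members with no GM line called higher numbered 114, and 4 with no filter. Members in both GM lists were 257 higher and 323 lower, 157 and 151 with the replicate block, and 0 and 2 with no filter. A left-out library leaves a lone sample assumed to vary like the other state. The cause of the drop without the filter was not tested. Median-of-ratios scaling raised the median log2 difference of all genes by 0.20, from -0.22 to -0.03.

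Symbols in both lists numbered 5653, 3383 at a p-value of at most 1e-05 and 3110 at a fold of at least 4; single lists held 6294 and 7471. The median geometric mean fold of 5.39 was 4.94 by the line with the lowest p-value, and 4.88 and 5.50 in single lists. The share of most enriched symbols whose peak touched the 3′ UTR was 86.4% on average over both lists, 90% ranked by geometric mean, 95.2% by the lowest p-value, 88.6% in list 1 alone, 72.5% in list 2 alone and 92.5% without mitochondrial symbols, an alternative added after seeing the data. For the CDS it was 43.2%, and 47.5% by geometric mean, 33.3% by the lowest p-value, 65% in list 2 alone and 20% without mitochondrial symbols. These rankings shared 17, 17, 11, 14 and 16 symbols with the 22, in the order named for the 3′ UTR. Of all members, the highest peak touched the 3′ UTR in 65.2% and 59.3%, and the CDS in 67.0% and 68.3%.

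Folds gave 0 calls under each alternative by limma, with 102 to 250 symbols at an unadjusted p under 0.05. The replicate numbers share only a number (correlation of deviations 0.290 for RNA and 0.117 for folds), and the replicate block gave 1298 RNA calls, 593 higher and 705 lower. Of 32 single genes, 15 were called, of which 0 turned direction and 1, *Myl4*, was called throughout. Of the 17 not called, 5 turned sign in at least 1 alternative.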
